A study of Mus musculus with 6 samples.

Results

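The 26S proteasome is the protease that degrades proteins tagged with ubiquitin. Its core particle encloses the active sites in rings of alpha and beta subunits, and its regulatory particle, made of a base with ATPases and a lid, binds, unfolds and deubiquitinates the substrate before it enters the core. In immune cells and under interferon, Psmb8, Psmb9 and Psmb10 replace the constitutive catalytic subunits and Psme1 and Psme2 form an alternative cap, which together alter the peptides made for MHC class I. In brown fat, the transcription factor Nfe2l1 is known to maintain proteasome subunit genes in the cold.

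The genes described here are those whose symbol begins with Psma, Psmb, Psmc, Psmd, Psme, Psmf or Psmg followed by a digit, taken from probe sets assigned to a single gene, and they numbered 49 of 18193 genes measured. Where several probe sets named a gene, the brightest on average was taken. Constitutive subunits of the core and of the regulatory particle made up 31 of the 49, and immunoproteasome genes 4. Psme2 has no value here, because the probe set that names it also names Psme2b. The prefix also took in Psmc3ip, a partner of the meiotic recombinases, and Psme3ip1, which binds Psme3, neither of which is a proteasome subunit.

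Inguinal white fat, the subcutaneous depot of the groin, was compared between 3 Naa10-KO and 3 wild-type (WT) male mice on Affymetrix expression arrays, with 1 array for each mouse. Naa10 encodes an enzyme that acetylates the N-termini of proteins as they are made. Mice of both genotypes began a diet with 60% of calories as fat at 6 weeks of age, kept to it for 15 weeks, and were held at 4 °C for 4 h before the tissue was taken. The labels do not give the allele, the strain or the cells in which Naa10 is lost. The annotation had no probe set that named Naa10 alone, and those naming several genes were not searched for it. The genotype was therefore not checked on the arrays.

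All values are log2 signals as deposited, and a difference is the Naa10-KO mean minus the WT mean on that scale. The median of all values, 5.86, serves as a mark of low signal. Adipocyte genes were bright on all arrays, with Adipoq (adiponectin) averaging 15.71 in Naa10-KO and 15.61 in WT fat. Skeletal muscle markers differed strongly between the genotypes: the means of 20 markers were 11.10, 11.02 and 11.26 on Naa10-KO arrays 1 to 3, against 5.13, 5.62 and 8.28 on WT arrays 1 to 3. All 20 averaged higher in Naa10-KO, and Pvalb passed limma (adjusted p = 0.0409). The groups did not overlap for 18 markers (90%), while 10.0% of all genes were separated in that direction. In WT fat 1 marker was below the low mark on all arrays, and in Naa10-KO fat 19 were at or above it on all. Beige and brown adipocyte markers averaged 9.05 ± 0.33 in Naa10-KO and 7.68 ± 0.26 in WT over 8 genes (SD, n = 3 arrays each), with 0 of the 8 called. For 4 of these 8 (50%) all Naa10-KO arrays lay above the WT arrays, against 10.0% of all genes, while Dio2 and Prdm16 averaged lower. Dio2 lay below the low mark on all arrays, so its direction is uncertain. Ucp1 differed most, by 6.17 (limma adjusted p = 0.0713), or by 4.10 with low values raised to the mark. One Naa10-KO array stood apart in the control probe sets for Gapdh, whose 3' minus 5' signal, a sign of RNA quality, was 0.55 on Naa10-KO array 1 and between -0.27 and 0.01 on the other 5. In a whole tissue, fewer cells of a type and less RNA per cell cannot be told apart.

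No proteasome gene differed between Naa10-KO and WT fat past the threshold. In limma, at a Benjamini-Hochberg adjusted p of 0.05 over all genes, 0 of the 49 were higher and 0 were lower, against 0.0879% of all genes called higher and 0.0275% called lower. Adjusted p-values of the 49 lay between 0.501 and 0.997. At an unadjusted p under 0.05, 1 member was higher and 4 were lower, against backgrounds of 4.85% and 4.35% of all genes. The median difference of the members was 0.0071 and that of all genes was 0.013, with 25 members averaging higher and 24 lower in Naa10-KO. With any 1 array left out, in each of 6 fits, the count of members called stayed at 0 in both directions, and without Naa10-KO array 1 none had an unadjusted p under 0.05.

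The groups did not overlap for 16 of the 49 genes. In 6 of them (12.2%) the lowest Naa10-KO array exceeded the highest WT array, against 10.0% of all genes, and in 10 (20.4%) the highest Naa10-KO array was under the lowest WT array, against 8.14% of all genes. Among the 5599 genes with a mean signal of 9 to 14, where most members lie, these shares were 14.9% higher and 12.2% lower. Those above were Psma7, Psmc2, Psmc6, Psmd11, Psmg2 and Psmg4. Those below were Psmb2, Psmb10, Psmc1, Psmd2, Psmd9, Psmd13, Psme4, Psmf1, Psma8 and Psmb11.

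**Figure D1:**
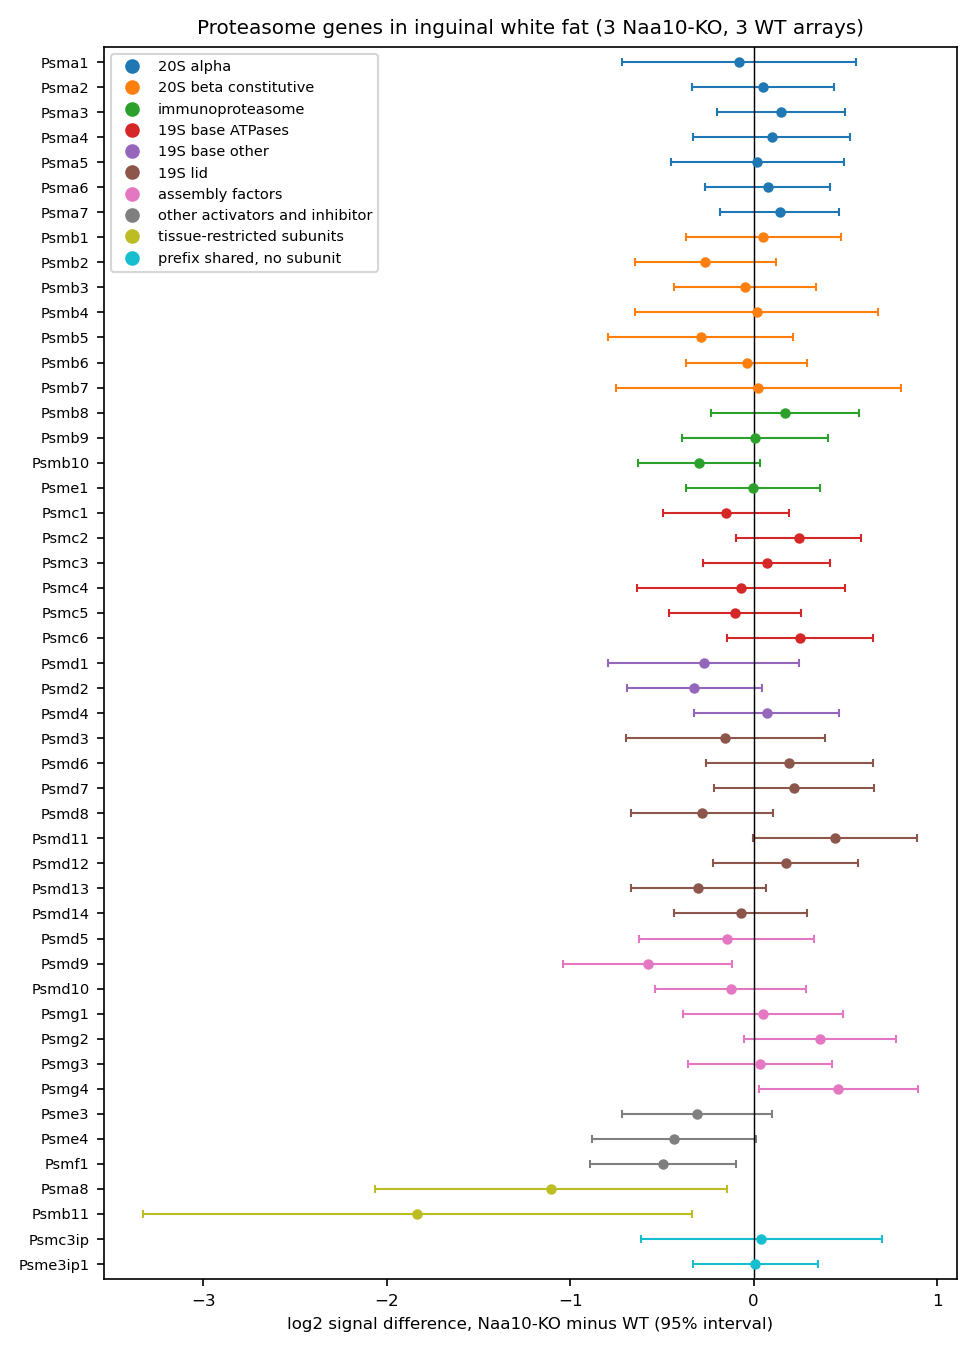
Difference in log2 signal, Naa10-KO minus WT, for each of the 49 genes, coloured by class, with the 95% interval from limma (n = 3 arrays per genotype). All 31 constitutive subunits have intervals inside 1 log2 unit of 0, and the widest intervals belong to the dim genes Psma8 and Psmb11.

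The constitutive subunits were bright and close to each other in the 2 genotypes. Their signals lay between 9.58 and 14.54 over all arrays, and their differences between -0.32 and 0.44, with a median of 0.021. The 95% interval of the difference lay within 1 log2 unit of 0 for 31 of 31. This held for 49.3% of all genes and 88.2% of the 5599 genes with a mean signal of 9 to 14. A change of 2-fold or more was thus outside the interval of the probe set used for each of these subunits. Some dimmer probe sets differed by more, among them those of Psmd2 (2.66), Psmd7 (2.33) and Psmd11 (-1.26). These separated the genotypes but lay below the low mark on all arrays. The mean over the 31 subunits was 12.32, 12.26 and 12.29 on Naa10-KO arrays 1 to 3, against 12.33, 12.32 and 12.23 on WT arrays 1 to 3. The array means of the genotypes overlapped, while the muscle marker means on the same arrays were 4.78 apart. On WT arrays 1 and 2 the muscle marker means were under the low mark, so the size of that gap is uncertain. With low values raised to the mark, the differences of the muscle markers ran from 0.083 (Myh2) to 6.89 (Tnnc2).

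The alpha subunits form the outer rings of the core and the gate through which substrates pass. Of the 7, 6 averaged slightly higher in Naa10-KO, between 0.021 for Psma5 and 0.15 for Psma3, and Psma1 differed by -0.080, at 13.05 ± 0.17 in Naa10-KO and 13.13 ± 0.41 in WT fat (SD, n = 3 each). Only Psma7 separated the genotypes, with 12.73, 12.66 and 12.64 on the Naa10-KO arrays and 12.58, 12.44 and 12.58 on the WT arrays. Its difference of 0.14 (SE 0.13) had a limma adjusted p of 0.744.

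Of the 7 constitutive beta subunits, 3 averaged higher and 4 lower, with a median difference of -0.036. Psmb5 carries the chymotrypsin-like site, which cuts after hydrophobic residues. Its signals were 11.59, 11.81 and 11.81 on the Naa10-KO arrays, against 12.15, 12.24 and 11.69 on the WT arrays. WT array 3 lay within the Naa10-KO range, and the difference of -0.29 (SE 0.20) had a limma adjusted p of 0.680. Without WT array 3 it was -0.46, and without WT array 2 it was -0.18.

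Psmb6, which carries the caspase-like site, was at 12.58, 12.55 and 12.62 on the Naa10-KO arrays and at 12.73, 12.60 and 12.54 on the WT arrays. These values overlapped and differed by -0.036 (SE 0.13, limma adjusted p = 0.939). Psmb7, which carries the trypsin-like site, was the least repeatable, with signals of 13.01, 12.59 and 12.35 in Naa10-KO, against 12.65, 13.08 and 12.15 in WT. Its difference was 0.026 (SE 0.31), with a 95% interval from -0.75 to 0.80. Psmb2, a structural subunit of the beta ring, was at 10.77, 11.04 and 11.06 on the Naa10-KO arrays and at 11.24, 11.31 and 11.11 on the WT arrays, a separated but small difference of -0.26 (limma adjusted p = 0.638). Psmb1, Psmb3 and Psmb4 differed by 0.054, -0.048 and 0.017. A dimmer probe set of Psmb3 differed by -0.40, with no overlap between the genotypes.

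The 4 measured immunoproteasome genes had a median difference of 0.0023 and ranged from -0.30 to 0.17. Psmb8 replaces Psmb5, and its signals were 10.99, 10.78 and 10.73 on the Naa10-KO arrays, against 10.55, 10.58 and 10.85 on the WT arrays. WT array 3 exceeded 2 of the Naa10-KO arrays, and the difference of 0.17 (SE 0.16) had a limma adjusted p of 0.753. It was 0.27 without WT array 3 and 0.095 without Naa10-KO array 1. Psmb9, which replaces Psmb6, was at 9.97, 9.93 and 9.89 in Naa10-KO, against 10.02, 9.70 and 10.06 in WT, with a difference of 0.0071 (SE 0.16, limma adjusted p = 0.993). All Naa10-KO values of Psmb9 fell inside the WT range.

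Psmb10, which replaces Psmb7, was the 1 immunoproteasome gene whose groups did not overlap. Its signals were 10.15, 10.22 and 10.36 on the Naa10-KO arrays, against 10.53, 10.52 and 10.56 on the WT arrays, with WT fat the more uniform. The difference of -0.30 (SE 0.13) had a 95% interval from -0.63 to 0.04 and a limma adjusted p of 0.569. Psme1, a subunit of the interferon-inducible cap, was at 11.85, 11.89 and 11.88 in Naa10-KO and 11.69, 11.95 and 11.98 in WT, with a difference of -0.0024 (SE 0.14). All its Naa10-KO values fell inside the WT range.

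**Figure D2:**
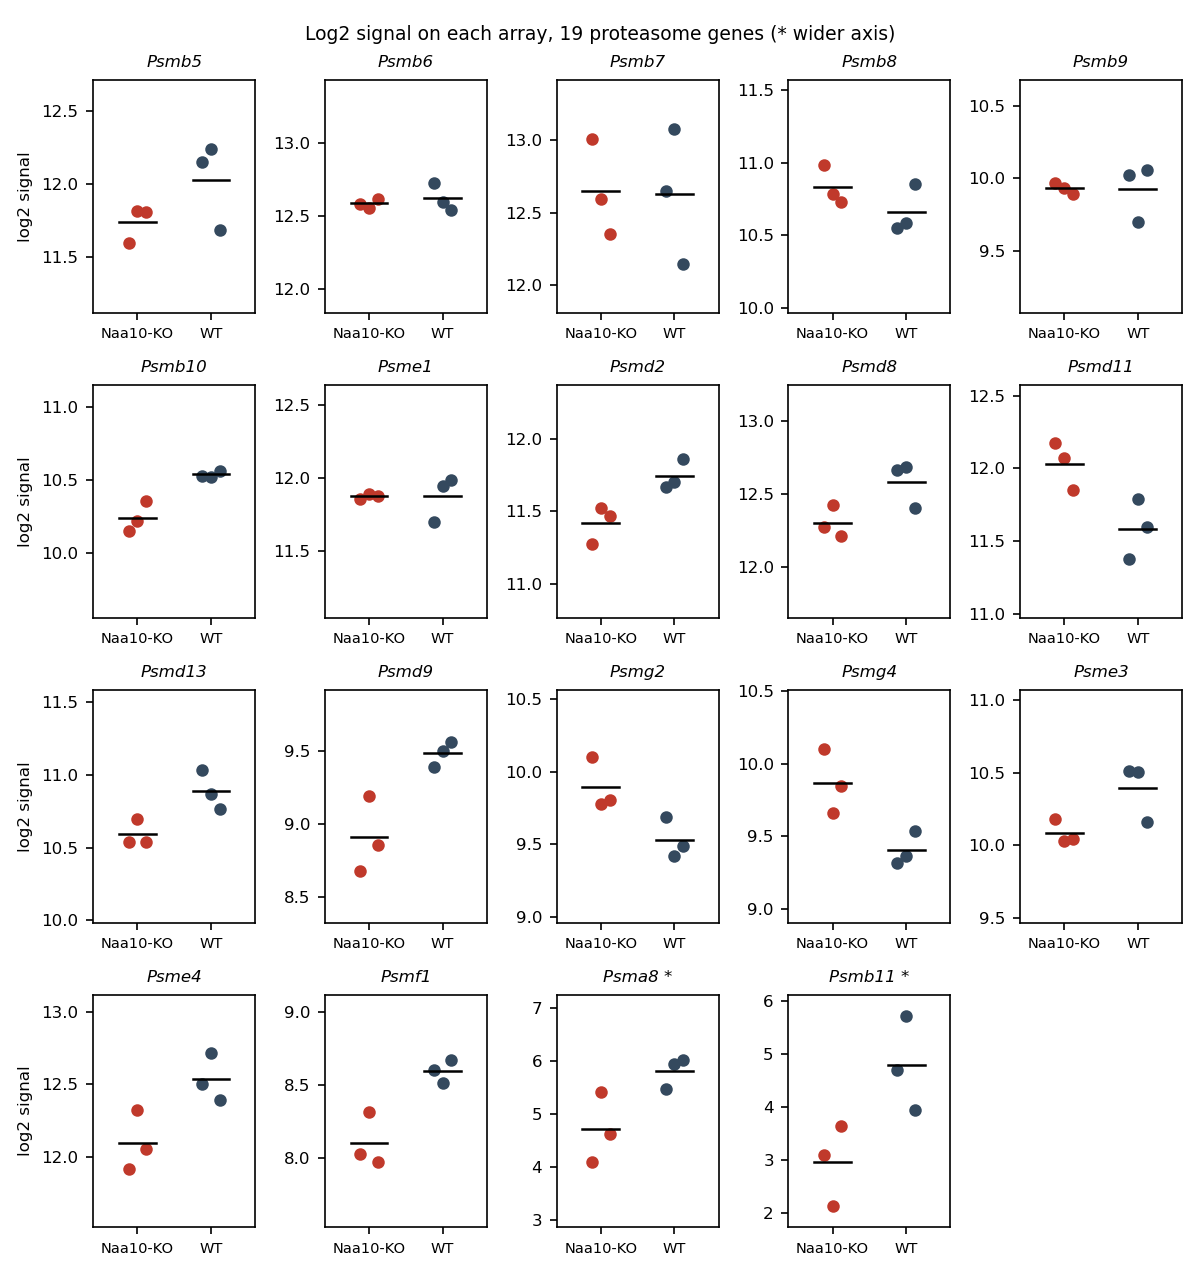
Log2 signal on each array (points) and genotype mean (line) for 19 of the genes given array by array, with Naa10-KO left of WT. All panels span the same width of log2 units except those with an asterisk, which are wider, and the groups separate in Psmb10, Psmd2, Psmd9, Psmd11, Psmd13, Psmg2, Psmg4, Psme4, Psmf1, Psma8 and Psmb11.

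Whether the immune subunits changed differently from the constitutive ones they replace was tested on the ratio of each pair within an array. The log2 ratio of Psmb8 to Psmb5 was -0.61, -1.03 and -1.08 on the Naa10-KO arrays and -1.60, -1.65 and -0.84 on the WT arrays. Its change was 0.46, and WT array 3 lay inside the Naa10-KO range. For Psmb9 over Psmb6 the change was 0.043, with -2.65 ± 0.06 in Naa10-KO and -2.70 ± 0.21 in WT (SD, n = 3 each). For Psmb10 over Psmb7 it was -0.32, with -2.41 ± 0.43 in Naa10-KO and -2.09 ± 0.48 in WT. The 3 pairs gave two-sided exact permutation p-values of 0.3, 0.8 and 0.5 (0.75, 0.8 and 0.75 after Benjamini-Hochberg adjustment over the 3 pairs), where 3 arrays against 3 can give no less than 0.1. These p-values could not pass a threshold of 0.05 whatever the values, and the groups overlapped in all 3 pairs. Without WT array 3 the change was 0.72 for Psmb8 over Psmb5 and -0.073 for Psmb10 over Psmb7. The ratios themselves do not compare amounts, since probe sets differ in brightness.

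**Figure D3:**
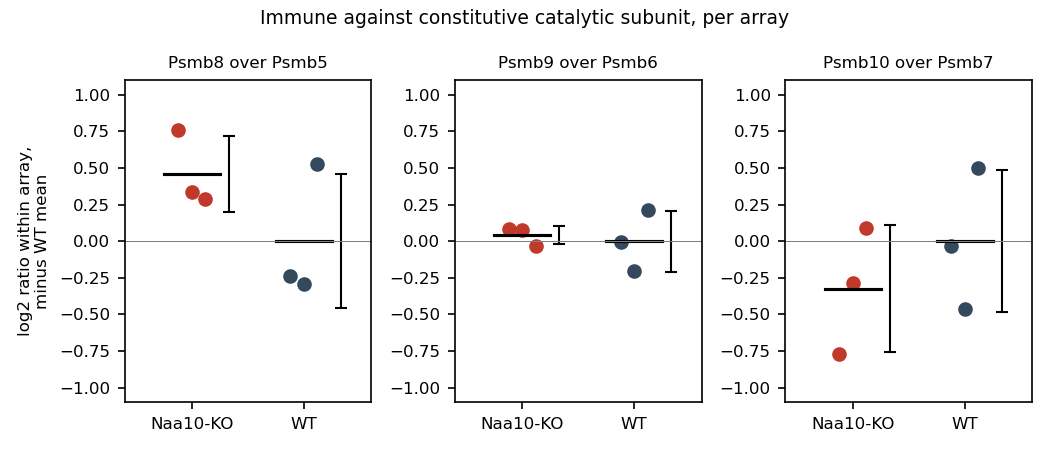
Log2 ratio of each immune catalytic subunit to the constitutive one it replaces, on each array, shown relative to the WT mean; points are arrays, lines are means and bars are SD (n = 3). The Naa10-KO mean lies 0.46 above WT for Psmb8 over Psmb5, 0.043 above for Psmb9 over Psmb6 and 0.32 below for Psmb10 over Psmb7, and the groups overlap in all 3.

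Markers of immune cells, which are known to carry immunoproteasome, were measured beside these values. Means over 10 macrophage markers were 9.77, 9.79 and 9.65 in Naa10-KO and 9.72, 9.84 and 9.77 in WT. B cell markers varied widely within both genotypes, with means over 9 genes of 7.27, 5.63 and 8.28 in Naa10-KO and 8.12, 7.91 and 6.61 in WT. Of these 9, 8 averaged lower and 1 higher in Naa10-KO, and 0 were called. Lower at an unadjusted limma p under 0.05 were 2 (22.2%), against 4.35% of all genes. These were Ighm, by -1.22 with overlap, and Pax5, by -1.88, or by -0.24 with low values raised to the mark. T cell markers averaged 6.70 ± 0.33 in Naa10-KO and 6.71 ± 0.36 in WT over 8 genes (SD, n = 3 arrays each). Means over 9 dendritic cell and MHC class II genes were 8.05, 8.63 and 9.15 in Naa10-KO and 8.66, 8.33 and 8.29 in WT, and 0 of the 9 were called. The part of these cells in the immunoproteasome values was not tested. The immunoproteasome mean on the same arrays was 10.74, 10.71 and 10.71 in Naa10-KO and 10.70, 10.69 and 10.86 in WT.

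Of 13 other genes of MHC class I antigen processing that were measured, 0 were called in either direction, with a median difference of -0.15. None, or 0, had an unadjusted p under 0.05, against 4.85% of all genes higher and 4.35% lower. Tapbp (tapasin, which loads peptides onto MHC class I) was at 10.97, 11.63 and 11.63 in Naa10-KO and 11.86, 11.93 and 12.10 in WT (difference -0.55, SE 0.23, limma adjusted p = 0.553). All its Naa10-KO arrays lay below the WT arrays. Pdia3, its partner in the loading complex, differed by -0.32, Calr (calreticulin) by -0.29 and Erap1, the peptidase that trims peptides in the endoplasmic reticulum, by 0.26. The peptide transporter gene Tap1 differed by 0.059 and the interferon-induced regulator Irf1 by -0.040, both with overlap.

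Where the immune and constitutive genes lie, and short stretches just before their starts, are given by RefSeq on GRCm38.p6. Psmb8 (chr17:34198195-34201454) and Psmb9 (chr17:34182030-34187330) lie on either side of Tap1, and Psmb5 (chr14:54614120-54617995) lies next to Psmb11 (chr14:54625310-54629556). Promoters of 300 bases, 250 before and 50 after the annotated start, were found for 41 of the 49 genes (44 promoters). The antioxidant response element core TGACNNNGC, the motif that Nfe2l1 and its relative Nfe2l2 bind, was in 13.6% of these promoters on either strand and in 12.4% of all 32851 promoters. It was in the promoters of Psmb5, Psmb6, Psmd9, Psmc6, Psmd12 and Psme4, genes whose differences ran from -0.58 (Psmd9) to 0.25 (Psmc6). The interferon element core GAAANNGAA was in 15.9% of the members' promoters and 8.56% of all. A match is a description of letters and not a bound site. Shown 5′ to 3′ on the strand of the gene, with the match in capitals, are the catalytic subunit gene Psmb5 and the assembly factor gene Psmd9, which both hold the first motif. The match begins 47 bases before the annotated gene start in Psmb5 (chr14:54618009-54618068, minus strand) and 31 in Psmd9 (chr5:123228133-123228189, plus).
Psmb5: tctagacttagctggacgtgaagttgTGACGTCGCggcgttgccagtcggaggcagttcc
Psmd9: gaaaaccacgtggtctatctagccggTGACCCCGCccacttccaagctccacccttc

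The 6 ATPases of the base unfold substrates and open the gate of the core. They were balanced, with 3 averaging higher, 3 lower and a median difference of 0.0024. Psmc2 was at 12.97, 12.89 and 13.02 on the Naa10-KO arrays and 12.77, 12.59 and 12.77 on the WT arrays, and Psmc6 averaged 12.95 ± 0.11 in Naa10-KO and 12.70 ± 0.17 in WT (SD, n = 3 each). Both separated the genotypes, each with a difference of 0.25. Psmc1 separated them the other way by -0.15, and the limma adjusted p-values of these ATPases were 0.618, 0.653 and 0.745.

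The other subunits of the base hold ubiquitin chains and their carriers. Psmd2, the scaffold on which ubiquitin shuttle factors dock, was at 11.28, 11.52 and 11.47 in Naa10-KO, against 11.67, 11.70 and 11.86 in WT. Its groups did not overlap, and the difference of -0.32 (SE 0.15) had a limma adjusted p of 0.573. Its companion scaffold Psmd1 differed by -0.27 with overlap, and the ubiquitin receptor Psmd4 by 0.071.

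In the lid, which holds the deubiquitinase Psmd14, 4 of 8 subunits averaged higher and 4 lower. Psmd11, a lid subunit whose level is known to set proteasome activity in human embryonic stem cells, was at 12.17, 12.07 and 11.85 on the Naa10-KO arrays, against 11.38, 11.79 and 11.60 on the WT arrays. This was the largest difference among the constitutive subunits in these data, at 0.44 (SE 0.18, 1.36-fold), with a 95% interval from -0.0053 to 0.89 and a limma adjusted p of 0.542. The 3 next brightest probe sets of Psmd11 differed by 0.48, 0.22 and 0.078.

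Psmd13 was at 10.54, 10.70 and 10.54 in Naa10-KO, against 11.03, 10.87 and 10.77 in WT, a separated difference of -0.30 (SE 0.15, limma adjusted p = 0.595). Psmd8 was at 12.27, 12.42 and 12.21 in Naa10-KO, against 12.66, 12.69 and 12.40 in WT, with overlap and a difference of -0.28 (SE 0.15). Both are structural subunits of the lid. Psmd14 itself differed by -0.069, Psmd12 by 0.17, Psmd6 by 0.20, Psmd7 by 0.22 and Psmd3 by -0.15, all with overlap.

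The assembly factors help build the complex and are not part of its finished form. Their differences ranged from -0.58 to 0.46 around a median of 0.036, with 4 of 7 averaging higher. Psmd9, a chaperone of the base, was at 8.68, 9.19 and 8.85 on the Naa10-KO arrays, against 9.39, 9.50 and 9.57 on the WT arrays. It had the smallest unadjusted p of the 49 genes (0.0229), with a difference of -0.58 (SE 0.18, 1.49-fold higher in WT) and a limma adjusted p of 0.501. The second probe set of Psmd9 differed by -0.79, at 5.05, 5.05 and 5.51 on the Naa10-KO arrays and 6.45, 5.97 and 5.55 on the WT arrays. Its groups were only narrowly apart, and all its Naa10-KO values and WT array 3 lay below the low mark. The dimmest probe set, below the low mark on all arrays, differed by -0.079.

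Psmg4, a chaperone of alpha ring assembly, went the other way, at 10.10, 9.66 and 9.84 in Naa10-KO, against 9.32, 9.37 and 9.54 in WT. It was the 1 member higher at an unadjusted p under 0.05 (0.0409), with a difference of 0.46 (SE 0.17, 1.38-fold) and a limma adjusted p of 0.532. Psmg2, which with Psmg1 forms another chaperone of the alpha ring, was at 10.10, 9.78 and 9.80 in Naa10-KO and 9.69, 9.42 and 9.49 in WT, a separated difference of 0.36 (SE 0.17). The second probe set of Psmg2 differed by 0.18 with overlap, and its dimmest, mostly below the low mark, by -1.25 with overlap. Naa10-KO array 1, the array with the shifted Gapdh ratio, was the highest of the 6 for both chaperones. Without it the differences were 0.35 for Psmg4 and 0.26 for Psmg2. Psmg1, Psmg3, Psmd5 and Psmd10 overlapped between genotypes, with differences of 0.053, 0.036, -0.15 and -0.12.

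The remaining activators and the inhibitor all averaged lower in Naa10-KO. Psme4, which caps the core and is known for degrading acetylated histones, was at 11.92, 12.32 and 12.06 on the Naa10-KO arrays, against 12.50, 12.71 and 12.39 on the WT arrays. The difference was -0.44 (SE 0.18, 1.35-fold higher in WT), with a limma adjusted p of 0.546. Its 3 brightest probe sets differed by -0.44, -0.56 and -0.52, each with no overlap between genotypes, and the other 3 by 0.061, -0.33 and -0.65 with overlap. Without Naa10-KO array 1, the lowest of the 6, the difference was -0.35.

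Psmf1, named for inhibiting the core in vitro, was at 8.03, 8.31 and 7.97 in Naa10-KO, against 8.60, 8.51 and 8.67 in WT (difference -0.49, SE 0.16, limma adjusted p = 0.501). This separation was a matter of 1 probe set: the other 3 of Psmf1 differed by -0.023, -0.039 and 0.036. Psme3, the subunit of a nuclear cap, was at 10.18, 10.03 and 10.04 in Naa10-KO, against 10.51, 10.51 and 10.16 in WT, with overlap and a difference of -0.31 (SE 0.16). Its second probe set differed by -0.023, and the dimmest was below the low mark on all arrays.

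The tissue-restricted subunits were dim. Psma8, an alpha subunit of testis, was at 4.10, 5.42 and 4.62 in Naa10-KO, against 5.48, 5.95 and 6.02 in WT, and only 2 of the 6 arrays reached the low mark. Psmb11, the catalytic subunit of the thymic cortex, was at 3.10, 2.13 and 3.64 in Naa10-KO, against 4.70, 5.72 and 3.95 in WT, with all 6 arrays below the low mark. Their differences of -1.11 (SE 0.38) and -1.83 (SE 0.59) were the widest of the 49, with limma adjusted p-values of 0.512 and 0.503. With low values raised to the mark, the difference of Psma8 was -0.087 and that of Psmb11 was 0. The genes that share only the prefix, Psmc3ip and Psme3ip1, differed by 0.041 and 0.0097.

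Over all 103 probe sets of these genes, 0 passed limma at an adjusted p of 0.05 over 45037 probe sets, where 0% of all probe sets were called higher and 0% lower. At an unadjusted p under 0.05, 0 of the 103 were higher and 6 were lower, against 3.50% and 3.96% of all probe sets. Of the 49 genes, 22 had 1 probe set, and in 14 of the other 27 the probe sets differed in sign. That count takes in dim probe sets, and 18 of the 103 lay below the low mark on all arrays. In some genes, such as Psma5, Psmd2 and Psmg3, the sign differed only through such a probe set. In 5 genes the probe set used ends in s_at or x_at, which marks probes that also match other transcripts.

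Partners of the proteasome were examined next, and Zfand5 stood apart among them in size. Of 21 measured partners, 0 were called in either direction, with a median difference of 0.071. Higher at an unadjusted p under 0.05 were 2 (9.52%) and lower 0, against 4.85% and 4.35% of all genes. Zfand5, a zinc finger protein that activates the proteasome and is induced in wasting muscle, was at 13.37, 13.05 and 13.00 on the Naa10-KO arrays, against 11.95, 11.83 and 12.11 on the WT arrays. The difference of 1.18 (SE 0.17, 2.26-fold) did not pass (limma adjusted p = 0.157). Ube3c, a ubiquitin ligase that works at the proteasome, differed by 0.41, with 9.61 ± 0.18 in Naa10-KO and 9.20 ± 0.07 in WT (SD, n = 3 each).

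Nfe2l1 was at 11.18, 11.53 and 11.33 in Naa10-KO, against 11.53, 11.93 and 11.83 in WT. All Naa10-KO arrays lay below the WT arrays, though the highest of one and the lowest of the other nearly met, and the difference of -0.42 (SE 0.18) had a limma adjusted p of 0.556. Ngly1, the enzyme that removes sugars from the Nfe2l1 protein before it becomes active, differed by 0.29. Pomp, the chaperone that completes the core, differed by -0.053 (SE 0.14).

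Ubiquitin ligases of muscle were examined for their part in supplying the proteasome with substrates. Trim63 (MuRF1), which tags myofibrillar proteins for the proteasome, was at 13.18, 11.60 and 11.36 on the Naa10-KO arrays, against 2.16, 0.98 and 5.93 on the WT arrays. The difference was 9.02 (SE 1.38), or 6.17 with low values raised to the mark, and did not pass (limma adjusted p = 0.167). Fbxo32 (atrogin-1), a ligase adaptor that like Trim63 is induced in muscle wasting, was at 10.58, 10.39 and 9.08 in Naa10-KO, against 6.76, 7.26 and 7.44 in WT. Its difference of 2.86 (SE 0.46, 7.26-fold) had a limma adjusted p of 0.183, and Trim54 differed by 4.24 (adjusted p = 0.436), or by 1.50 with low values raised.

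Of the 14 muscle ligases and regulators measured, 0 were called, and the median difference was 0.19. Higher at an unadjusted p under 0.05 were 3 (21.4%) and lower 0, against 4.85% and 4.35% of all genes. Fbxo30 differed by 0.34 with overlap, and the regulators Foxo1 and Foxo3, which drive both Trim63 and Fbxo32 in muscle and were picked out after their values were seen, by -0.010 and 0.32. The muscle marker means given above were higher on the same arrays as Trim63, Fbxo32 and Zfand5, and their part in these differences was not tested.

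**Figure D4:**
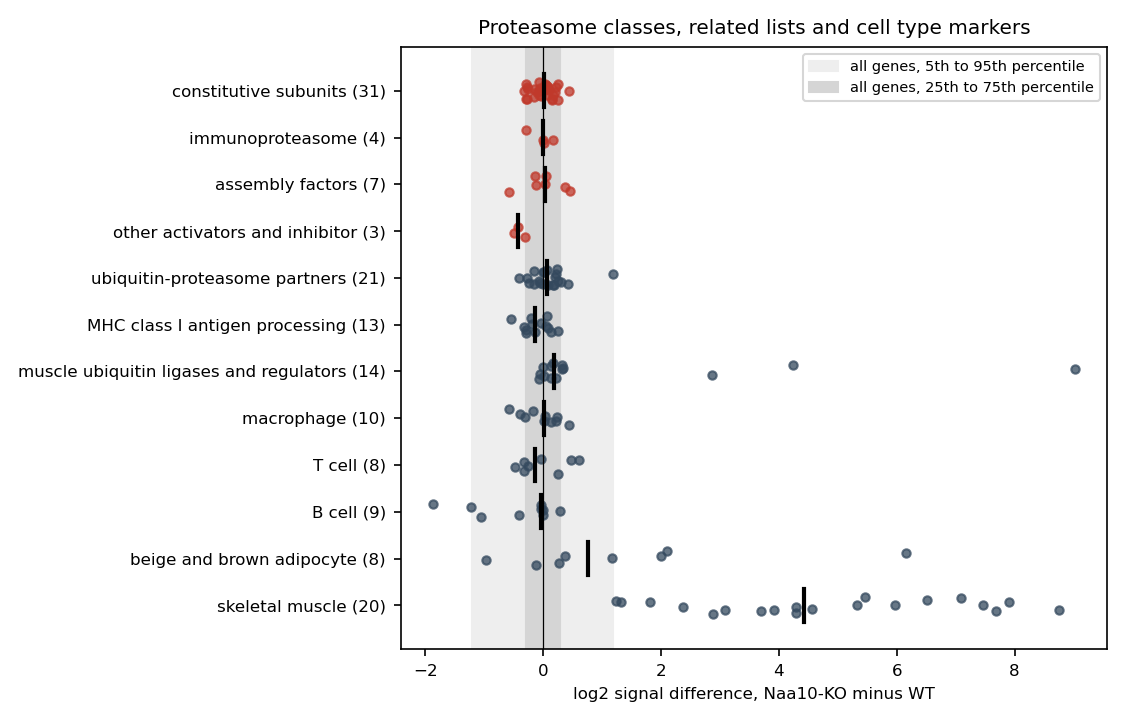
Difference in log2 signal, Naa10-KO minus WT, for each gene (points) of the proteasome classes (red) and of related lists and cell type markers (dark), with the median of each (bar) and the number of genes in brackets; the pale and darker grey bands run over the 5th to 95th and the 25th to 75th percentiles of all genes. The 31 constitutive subunits stay between -0.32 and 0.44, while muscle markers spread from 1.24 to 8.76 and the muscle ligases reach 9.02. Low values are not raised to the low mark in this figure.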

How the data were processed

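RNA of inguinal fat from 3 Naa10-KO and 3 WT mice was measured with 1 array per mouse. The deposited values are log2 signals of 45101 probe sets per array, used here unchanged. On the linear scale the mean after trimming 2% at each end is 500.0 on all 6 arrays, so each array had been scaled to 1 level. The software and background correction are not given in the sources used here. Detection calls were not used, so whether dim probe sets lay above background is unknown, and the number of arrays limits the precision.

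Probe sets were named through GEO's platform annotation of 2016: of 45037 other than the 64 controls, 34945 had 1 gene, 932 several and 9160 none. For 34741 the Entrez identifier matched the RefSeq table, and 0 symbols of proteasome genes changed. Genotypes were compared in limma 3.58.1 with R 4.3.3 (lmFit, eBayes, genotype alone, 2-sided, 1.39 prior degrees of freedom), fitted on all 18193 genes. Pairs of subunits were compared by exact permutation over arrays.

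The members and all gene lists were chosen with earlier results of these data known. Values on every array are given for the immunoproteasome genes, Psmb5, Psmb6 and Psmb7, and the 12 other members with the smallest unadjusted p. Of each related list up to 4 genes with the smallest unadjusted p are given, with Nfe2l1, Pomp, Fbxo32, Trim63, Tap1 and Irf1 by name, and any other was chosen after its values were seen, as were Psma7, Psmb2 and Psmc2 for values by array. Of 30 partners 21 were measured, of 14 antigen processing genes 13, and of 16 muscle ligases and regulators 14; the others were not analysed here. Replicate numbers did not pair the arrays (correlations of same-numbered deviations between -0.03 and -0.01). The limma fit was tested on simulated data and the permutation test on a made-up set of values, and the other steps were not tested in this way.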

Additional observations from a re-analysis of the deposited data

How the results depend on the processing

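Of the 49 proteasome genes, 0 were called in either direction under all 14 alternatives, with a smallest adjusted p between 0.189 (limma with trend and robust) and 0.744 (without Naa10-KO array 1). Members at an unadjusted p under 0.05 numbered at most 4 higher and 7 lower, both with trend and robust. The count over all genes, 16 higher and 5 lower, was less stable: quantile normalization called 3 lower, a filter on low values 70 higher, low values raised to the mark 104 higher and 13 lower, trend and robust 102 higher and 35 lower, and averaging a gene's probe sets 0 higher and 0 lower. Leaving out 1 array gave 0 to 29 higher and 0 to 1 lower, with the 29 and the 1 without WT array 3. The cause was not tested.

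With the replicate number as a block, 0 genes were called higher and 0 lower, and 0 members were higher and 2 lower at an unadjusted p under 0.05; same-numbered arrays share only a number.

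With a gene's probe sets averaged, dim ones included, Psmd13 (0.036), Psmd2 (1.17), Psme3 (0.25) and Psmg2 (-0.23) turned their direction, Psmf1 was at -0.13 and Psmd11 at 0.042, and the medians were 0.054 for the non-ATPase base subunits, -0.15 for assembly factors and -0.13 for the activators and inhibitor. Raising low values moved the median of the tissue-restricted subunits to -0.087, and leaving out probe sets ending in x_at or s_at moved that of all members to -0.036. Leaving out 1 array gave medians of -0.041 to 0.016 for all members, -0.012 to 0.11 for the ATPases, -0.37 to -0.13 for the other base subunits and -0.089 to 0.046 for assembly factors, and differences of -0.077 to 0.016 for Psmb6, -0.21 to 0.25 for Psmb7, -0.11 to 0.072 for Psmb9, -0.092 to 0.052 for Psme1 and -0.059 to 0.15 for Psmb9 over Psmb6. The filter dropped Psma8 and Psmb11, and raising low values dropped Psmb11. The pairs have no fit under the filter or under trend and robust.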
